A study of Mus musculus with 6 samples.

Results

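Retinoic acid is made inside cells from retinol, a form of vitamin A, and acts as a ligand of nuclear receptors. A set of 10 genes of this pathway was read here, chosen by name and with earlier results of these data known. It held the retinol dehydrogenase Rdh10, the retinaldehyde dehydrogenases Aldh1a1, Aldh1a2 and Aldh1a3, and the degrading enzyme Cyp26b1. The binding proteins Crabp1 and Crabp2 and the receptors Rara, Rarb and Rarg completed it. All 10 were found among the 19938 genes of the table that the platform annotation names with a single symbol. Each had 1 probe set, so no choice between probe sets was needed, and no filter on low values was applied.

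The cells were immortalized neural precursor-like cells from the embryonic brain of C57BL/6J mice at day 13.5. One group was wild type for Lgi1, which encodes a secreted neuronal protein, and the other was labelled Lgi1 knock-out, a homozygous deletion. Both groups were grown in RPMI medium with serum once immortalized, and the labels name no retinoid treatment. The platform was the Affymetrix Mouse Gene 1.0 ST array, with 3 arrays for each group. The labels call these biological replicates without giving the number of embryos or lines, so the p-values cover only the spread among these arrays, and that spread may be technical.

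RDH10 oxidizes retinol to retinaldehyde, and the ALDH1A enzymes oxidize retinaldehyde to retinoic acid. CRABP proteins carry the acid in the cytoplasm, CYP26 enzymes break it down, and RAR receptors bind DNA together with RXR partners. In the embryo the pathway patterns the hindbrain and spinal cord, and the meninges are a known source of the acid. Rarb is a classical target of the pathway, because its promoter carries a response element of direct repeats to which its own protein family binds.

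That element is shown first because it lies in one of the genes that differed most. The motif searched was a direct repeat of half-sites with 5 bases between them, on both strands. A half-site was AGGTCA, the variant AGTTCA, the variant GGGTCA, or the variant GGTTCA, in any combination. The windows were the RefSeq promoters of assembly GRCm38.p6, each 300.0 bases long, and 7 of the 10 genes had at least 1 window. Aldh1a3, Rdh10 and Crabp2 had no entry. Of 32851 windows, 32 (0.0974%) held the motif, and Rarb was the one gene of the 7 that held it. The other place among the pathway genes read here was Cyp26a1, which encodes a second degrading enzyme and is also a textbook retinoic acid target. The 250 bases before the start of each window's transcript follow, 5′ to 3′ on the strand of the gene, with the repeat in capitals. Rarb is at chr14:16575477-16575726 on the minus strand and Cyp26a1 at chr19:37697558-37697807 on the plus strand.
Rarb: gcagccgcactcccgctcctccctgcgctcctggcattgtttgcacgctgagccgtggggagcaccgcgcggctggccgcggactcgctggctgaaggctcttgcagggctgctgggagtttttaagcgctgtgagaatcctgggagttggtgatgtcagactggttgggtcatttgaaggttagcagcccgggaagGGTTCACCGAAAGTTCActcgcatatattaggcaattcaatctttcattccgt
Cyp26a1: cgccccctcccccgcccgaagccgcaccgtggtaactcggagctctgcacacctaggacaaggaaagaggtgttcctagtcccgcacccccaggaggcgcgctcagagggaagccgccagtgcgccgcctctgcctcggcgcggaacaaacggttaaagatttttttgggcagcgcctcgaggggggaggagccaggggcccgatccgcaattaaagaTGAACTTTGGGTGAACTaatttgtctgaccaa

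In Rarb the repeat ran from base −53 to base −37, counted back from the start, and its letters were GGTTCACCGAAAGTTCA. In Cyp26a1 it lay on the opposite strand from base −32 to base −16, where it reads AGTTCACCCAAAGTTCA. A match describes these letters and does not show that a factor was bound. The 2 genes with this repeat had different readings, as given below. Rarb was 7.93-fold higher as measured in the knock-out cells, and Cyp26a1 was within background in both genotypes. The same repeat with 1 or 2 bases between the half-sites was present in 0.222% and 0.268% of all windows, and in no window of the 10 genes.

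Background was judged from 1194 receptor genes of the nose (olfactory and vomeronasal). Their median log2 value was 4.89 and their 95th percentile 5.68, and a genotype mean under 5.68 is called within background here. By this measure 3 of the 10 genes (Aldh1a2, Aldh1a3 and Cyp26b1) were within background in both genotypes and 5 were above it in both. Crabp2 was above it in knock-out cells alone, and Aldh1a1 in wild-type cells alone. All differences are log2 values, knock-out minus wild type. They were tested with limma over all 19938 genes, and a gene is said to have risen or fallen at a Benjamini-Hochberg adjusted p under 0.05.

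The binding proteins and the receptors Rarb and Rarg rose, whereas among the synthesis enzymes Aldh1a1 fell and the others did not pass. Rara passed narrowly and lost its call under 10 of 13 alternatives, among them the replicate number as a block, with which 5 of the 10 genes passed. Of the 10 genes 6 passed (Crabp1, Crabp2, Rara, Rarb and Rarg upward, Aldh1a1 downward), beside 31.6% of all genes tested. Of these, 5 rose, beside 14.0% of all genes, and 1 fell, beside 17.6%. At least 2-fold rises were found for 3 of the 10 (Crabp2, Rarb and Crabp1), beside 3.05% of all genes, and no fall reached that size, beside 2.27%. The arrays of the genotypes did not overlap for 7 of the 10 genes, beside 42.3% of all genes. The median log2 difference of the 10 genes was +0.14, and that of all genes −0.012. These genes and the lists below were chosen with earlier results of these data known. Their shares beside all genes are therefore no independent test.

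**Figure D1:**
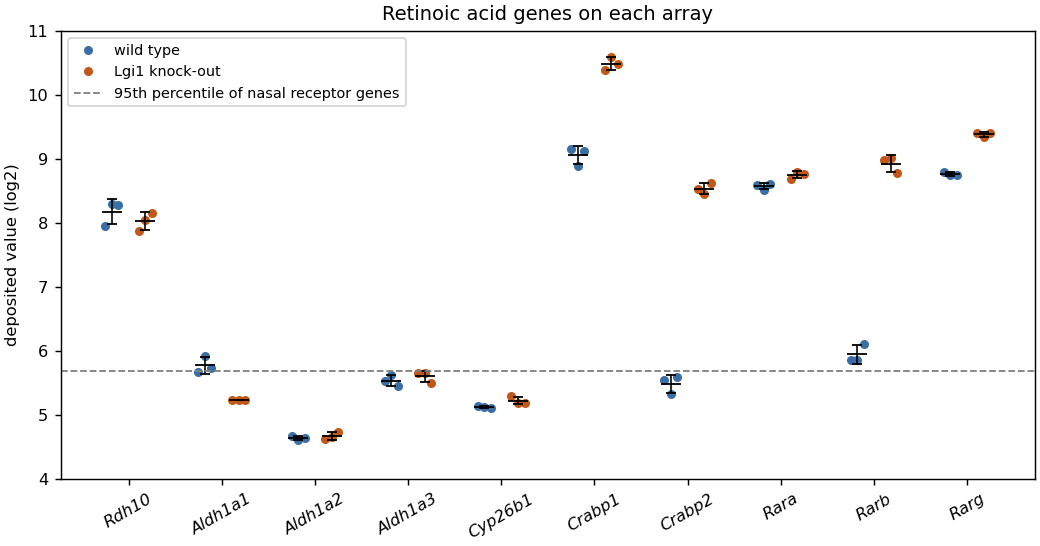
Deposited log2 value (vertical axis) of the 10 retinoic acid genes on each of 3 wild-type and 3 knock-out arrays; points are arrays, bars the mean and SD, and the dashed line the 95th percentile of nasal receptor genes (5.68). Heights of different genes are not comparable because each probe set has its own response. The knock-out arrays lie far above the wild-type arrays for Crabp2, Rarb and Crabp1.

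Crabp2, which carries retinoic acid to the receptors in the nucleus, showed the largest difference of the 10 (probe set 10493108, chromosome 3). The wild-type arrays had log2 values of 5.54, 5.33 and 5.59, whereas the knock-out arrays had 8.53, 8.45 and 8.62. Every knock-out array was higher than every wild-type array, with a gap of 2.86 between the nearest. The means were 5.48 ± 0.139 and 8.53 ± 0.0853 (SD, n = 3 each). The log2 difference was +3.05 (SE 0.08), or 8.28-fold as measured (limma adjusted p = 1.2e-09). Because the wild-type mean was within background, the wild-type level is known only from above. Set against the 5.68 mark in its place, the knock-out mean was at least 7.23-fold higher.

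Crabp1, the paralog that is thought to hold retinoic acid in the cytoplasm, was well above background in both genotypes (probe set 10585438, chromosome 9). It had log2 values of 9.16, 8.90 and 9.13 in wild-type cells, against 10.40, 10.60 and 10.49 in knock-out cells. The groups did not overlap, and the gap between the nearest arrays was 1.24. The means were 9.06 ± 0.143 and 10.49 ± 0.102 (SD, n = 3 each), a log2 difference of +1.43 (SE 0.09), or 2.70-fold (limma adjusted p = 5.1e-07). Both binding proteins were thus higher in knock-out cells, one from within background and the other from a level already above it.

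Rarb, the receptor gene with the response element shown above, rose almost as far as Crabp2 (probe set 10417713, chromosome 14). The wild-type arrays read 5.85, 5.86 and 6.11 and the knock-out arrays 8.98, 9.02 and 8.78. The wild-type values lay just above the 5.68 mark and the knock-out values well clear of it, with a gap of 2.67 between the groups. The means were 5.94 ± 0.144 and 8.93 ± 0.13 (SD, n = 3 each). The log2 difference was +2.99 (SE 0.09), or 7.93-fold as measured (limma adjusted p = 2.9e-09), which ranked 180th of all genes. With the wild-type mean so near the mark, the size of this rise is limited by the background of the array. The promoter printed above belongs to a start inside the annotated gene, and the array does not tell which start the transcripts used.

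Rarg, the receptor prominent in mesenchyme and skin, rose less (probe set 10432972, chromosome 15). Its log2 values were 8.80, 8.75 and 8.75 in wild-type cells, against 9.41, 9.34 and 9.41 in knock-out cells. The groups were 0.54 apart at their nearest arrays. The means were 8.77 ± 0.0277 and 9.39 ± 0.0377 (SD, n = 3 each), a log2 difference of +0.62 (SE 0.06), or 1.54-fold (limma adjusted p = 1.8e-05).

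Rara, the most widely expressed of the receptors in most tissues, had the smallest rise that passed (probe set 10381082, chromosome 11). Its values were 8.60, 8.52 and 8.60 in wild-type cells, against 8.70, 8.80 and 8.77 in knock-out cells. The groups did not overlap, but the nearest arrays were only 0.092 apart. The means were 8.57 ± 0.0455 and 8.76 ± 0.0549 (SD, n = 3 each), and the log2 difference was +0.18 (SE 0.06, limma adjusted p = 0.047). The call was lost when the replicate number entered as a block (adjusted p = 0.051), with quantile normalization (0.063), with arrays centred on their medians (0.11) and with an intensity trend (0.068). It was also lost without wild-type replicate 1 (adjusted p = 0.081), 2 (0.14) or 3 (0.069) and without knock-out replicate 2 (0.15) or 3 (0.12). The difference stayed upward at 0.15 to 0.21 under all 13 alternatives.

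**Figure D2:**
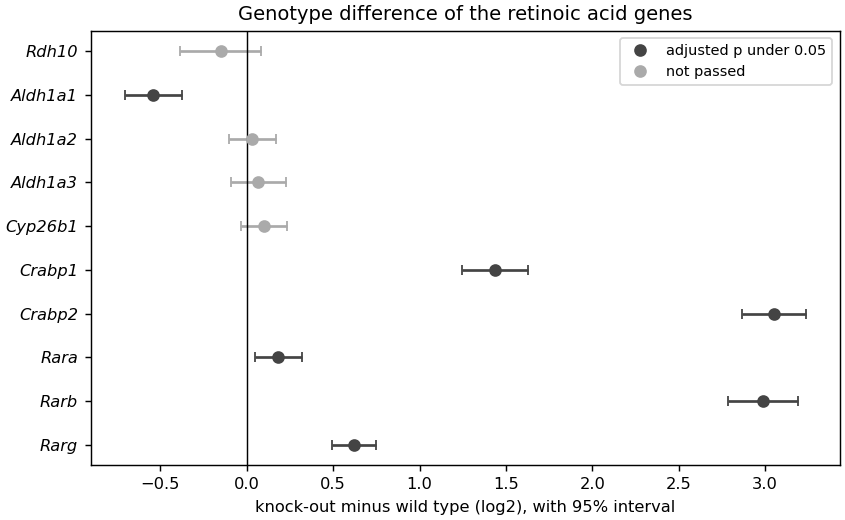
Knock-out minus wild-type difference (log2, horizontal axis) of each of the 10 genes, with its 95% interval from limma without the replicate block. Dark points passed at an adjusted p under 0.05 and light points did not. The largest differences are those of Crabp2 (+3.05), Rarb (+2.99) and Crabp1 (+1.43), while the intervals of Rdh10, Aldh1a2, Aldh1a3 and Cyp26b1 include 0.

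On the side of synthesis, Rdh10, which catalyses the first oxidation and is needed for retinoic acid in the embryo, was clearly above background in both genotypes (probe set 10344952, chromosome 1). The wild-type arrays read 7.95, 8.29 and 8.28, and the knock-out arrays 7.87, 8.05 and 8.15. The groups overlapped. The log2 difference was −0.15 (95% interval −0.38 to 0.083) and did not pass (limma adjusted p = 0.35, and 0.093 with the replicate block). Its SE was 0.10 without the block, as used for the interval, and 0.061 with it. Each knock-out array was below the wild-type array of its number, by 0.080, 0.24 and 0.13. Without wild-type replicate 1 the difference was −0.26 (adjusted p = 0.058), without wild-type replicate 2 or 3 −0.093 and −0.097, and without knock-out replicate 1 −0.074.

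Aldh1a1, a retinaldehyde dehydrogenase known from dopaminergic precursors of the ventral midbrain, was the gene that fell (probe set 10461979, chromosome 19). The wild-type arrays read 5.67, 5.92 and 5.73, close to the 5.68 mark, and the knock-out arrays 5.22, 5.23 and 5.23, under it. The groups did not overlap, with a gap of 0.44. The means were 5.77 ± 0.129 and 5.23 ± 0.00565 (SD, n = 3 each), a log2 difference of −0.54 (SE 0.07, limma adjusted p = 2.5e-04). The knock-out level lay within background and the wild-type level barely above it, so the size of this fall is limited by the background of the array.

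Aldh1a2, the main enzyme of retinoic acid synthesis in the early embryo and in the meninges, was within background on all arrays (probe set 10586865, chromosome 9). Its values were 4.67, 4.60 and 4.64 in wild-type cells, against 4.62, 4.65 and 4.73 in knock-out cells. The groups overlapped, and the difference was +0.031 (95% interval −0.10 to 0.17, limma adjusted p = 0.78). Its sign turned when arrays were centred on their medians or knock-out replicate 3 was left out.

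Aldh1a3, which acts in the eye, nose and lateral forebrain, read 5.52, 5.63 and 5.45 in wild-type cells, against 5.65, 5.65 and 5.50 in knock-out cells (probe set 10564417, chromosome 7). These values were within background and overlapped, with a difference of +0.068 (95% interval −0.094 to 0.23, limma adjusted p = 0.57). None of the 3 Aldh1a genes thus had a mean above background in knock-out cells. An array cannot show that a transcript is absent, and a probe set within background has no measured fold.

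Cyp26b1, which breaks down retinoic acid in the hindbrain, limb and skin, was within background as well (probe set 10545771, chromosome 6). It read 5.13, 5.12 and 5.10 in wild-type cells, against 5.28, 5.18 and 5.18 in knock-out cells. The arrays did not overlap, but the gap was 0.050 and the difference of +0.10 (95% interval −0.032 to 0.24) did not pass (limma adjusted p = 0.26).

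**Figure D3:**
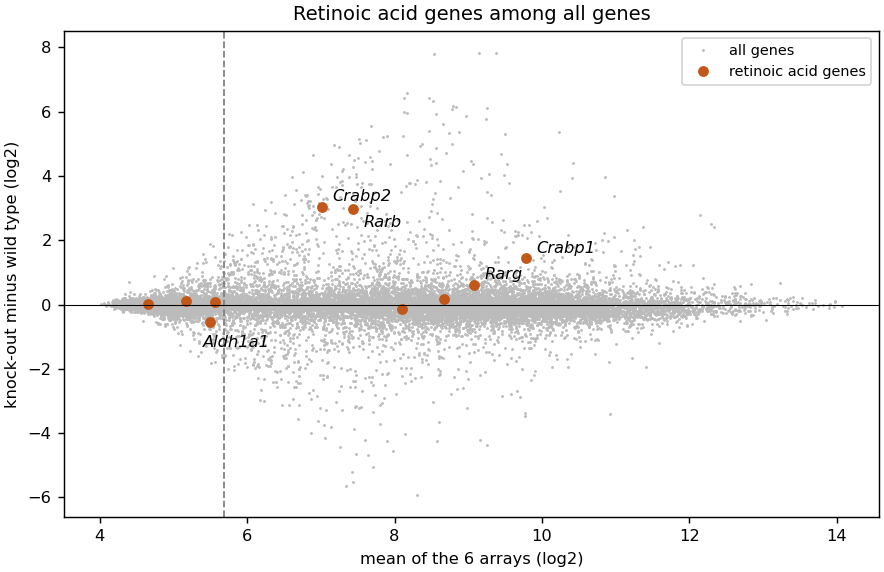
Knock-out minus wild-type difference (log2, vertical axis) against the mean of the 6 arrays (log2, horizontal axis) for 19938 genes in grey and the 10 retinoic acid genes in orange; the dashed line is 5.68, the 95th percentile of nasal receptor genes. Crabp2 and Rarb lie above most genes of their level, and the 4 retinoic acid genes left of the line have differences of −0.54 to +0.10.

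The rest of the retinoid pathway was read from a list of 47 carriers, enzymes, partner receptors and coregulators, of which 44 had a row with a single symbol and the others were not analysed here. Of these 44, 4 rose, 5 fell and 35 did not pass, or 20.5% called beside 31.6% of all genes. The median log2 difference was −0.040, beside −0.012 over all genes. In 24 of the 44 both genotype means were within background, and none of these 24 passed.

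Of 15 enzymes that interconvert retinol and retinaldehyde, 2 rose and 2 fell (26.7% called, beside 31.6% of all genes), and 7 had both means within background. Dhrs3, which reduces retinaldehyde back to retinol and is induced by retinoic acid, rose from 7.43, 7.54 and 8.43 to 9.47, 9.42 and 9.65. All knock-out arrays were higher, although wild-type replicate 3 stood nearer to them than the other wild-type arrays. The log2 difference was +1.72 (SE 0.22, limma adjusted p = 1.5e-04). Dhrs4, a related reductase, rose by 0.48 (SE 0.08). The falls were those of Rdh5 by 0.29 (limma adjusted p = 0.045) and Rdh12 by 0.26 (adjusted p = 0.048), both retinol dehydrogenases. The knock-out mean of Rdh5 (5.59) was within background, so its fall has no exact size. The call of Rdh5 was lost without any one of 5 arrays (adjusted p = 0.053 to 0.16), all but wild-type replicate 2. That of Rdh12 was lost with an intensity trend (adjusted p = 0.060), without wild-type replicate 1 (0.15) or 3 (0.13) and without knock-out replicate 2 (0.17) or 3 (0.090). When the replicate number entered as a block, Dhrs7 (+0.25, limma adjusted p = 0.010) and Rdh19 (−0.28, 0.018, with both means within background) passed too; without it their adjusted p was 0.10 and 0.18.

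Among alcohol dehydrogenases, 2 of 4 fell (50% called, beside 31.6% of all genes), and the other 2 were within background in both genotypes. Adh7, a member with high activity towards retinol, read 9.28, 9.45 and 9.41 in wild-type cells, against 7.29, 7.60 and 7.66 in knock-out cells. Every wild-type array was higher, and the log2 difference was −1.87 (SE 0.10, limma adjusted p = 1.9e-07). Adh5, better known as a formaldehyde-metabolizing enzyme, fell by 0.33 (SE 0.06).

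Of 7 genes of retinol transport and uptake, 1 fell (14.3% called, beside 31.6% of all genes) and 6 were within background in both genotypes. Rbp4, the carrier of retinol in blood, fell from 10.16, 9.87 and 10.47 to 8.81, 8.71 and 8.95. The groups did not overlap (log2 difference −1.34, SE 0.13, limma adjusted p = 2.4e-05). Stra6, the receptor that takes up retinol from RBP4, was within background with means of 5.59 and 5.60.

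Breakdown enzymes other than Cyp26b1 were low. Cyp26a1, with the response element shown above, read 4.33 in wild-type cells, against 4.30 in knock-out cells (means; log2 difference −0.030, limma adjusted p = 0.79), and Cyp26c1 was within background too. Cyp1b1, a cytochrome P450 that can also oxidize retinol, rose by 0.47 (SE 0.13, limma adjusted p = 0.022). Without wild-type replicate 1 its rise was 0.30, and without knock-out replicate 3 it did not pass (adjusted p = 0.088).

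The RXR partner receptors did not pass. Rxra had means of 8.49 and 8.55 (log2 difference +0.054, 95% interval −0.096 to 0.20), Rxrb 8.32 and 8.37 (+0.055, −0.093 to 0.20), and Rxrg was within background. Fabp5 and Ppard, an alternative route by which retinoic acid can signal, did not pass either (−0.074 and −0.16). Of 4 coregulators 1 passed (25% called, beside 31.6% of all genes). Nrip1, a corepressor that is itself induced by retinoic acid, rose by 0.53 (SE 0.06, limma adjusted p = 9.3e-05). The coactivator gene Ncoa1 (−0.20) had a limma adjusted p of 0.062, and of 0.041 with the replicate block.

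A further list held 28 genes chosen as induced by retinoic acid in some tissue. Of these, 24 were measured and 4 belong to the pathway list too. Of the 24, 6 rose, 5 fell and 13 did not pass (45.8% called, beside 31.6% of all genes), with a median log2 difference of +0.010. With the replicate block 12 passed, as Btg2, an antiproliferative gene (+0.52), went from a limma adjusted p of 0.056 to 1.9e-04. The genes did not move as one: 2 rose and 4 fell at least 2-fold. The 5 that fell went against the direction by which the list was drawn up. In 8 of the 24 both means were within background.

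The homeobox cofactors Meis1 and Meis2, both patterning factors of the neural tube, went opposite ways. Meis2 rose from 8.95, 8.83 and 8.89 to 11.21, 10.96 and 10.91 (log2 difference +2.14, SE 0.08), and Meis1 fell from 9.97, 9.94 and 9.89 to 7.84, 7.65 and 7.56 (−2.25, SE 0.08). Neither pair of groups overlapped. Rarres1, named for its induction by a retinoid in skin, fell from 8.31, 8.38 and 9.03 to 6.65, 6.20 and 6.31 (−2.18, SE 0.18).

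Pax6, a transcription factor of neural progenitors, fell by 1.69 to a knock-out mean within background (5.44), so this fall has no exact size. Tshz1, a zinc finger factor, fell by 1.40, and for both genes every wild-type array was higher. Besides these, Tgm2, a transglutaminase, fell by 0.81, while Ntrk2, a neurotrophin receptor, rose by 0.79 with both means within background. Of the 4 Hox genes measured in this list, Hoxa4 rose by 0.50 (SE 0.12, limma adjusted p = 0.0096). Hoxb1 (+0.0072), Hoxb4 (+0.074) and Hoxd4 (−0.049) did not pass.

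**Figure D4:**
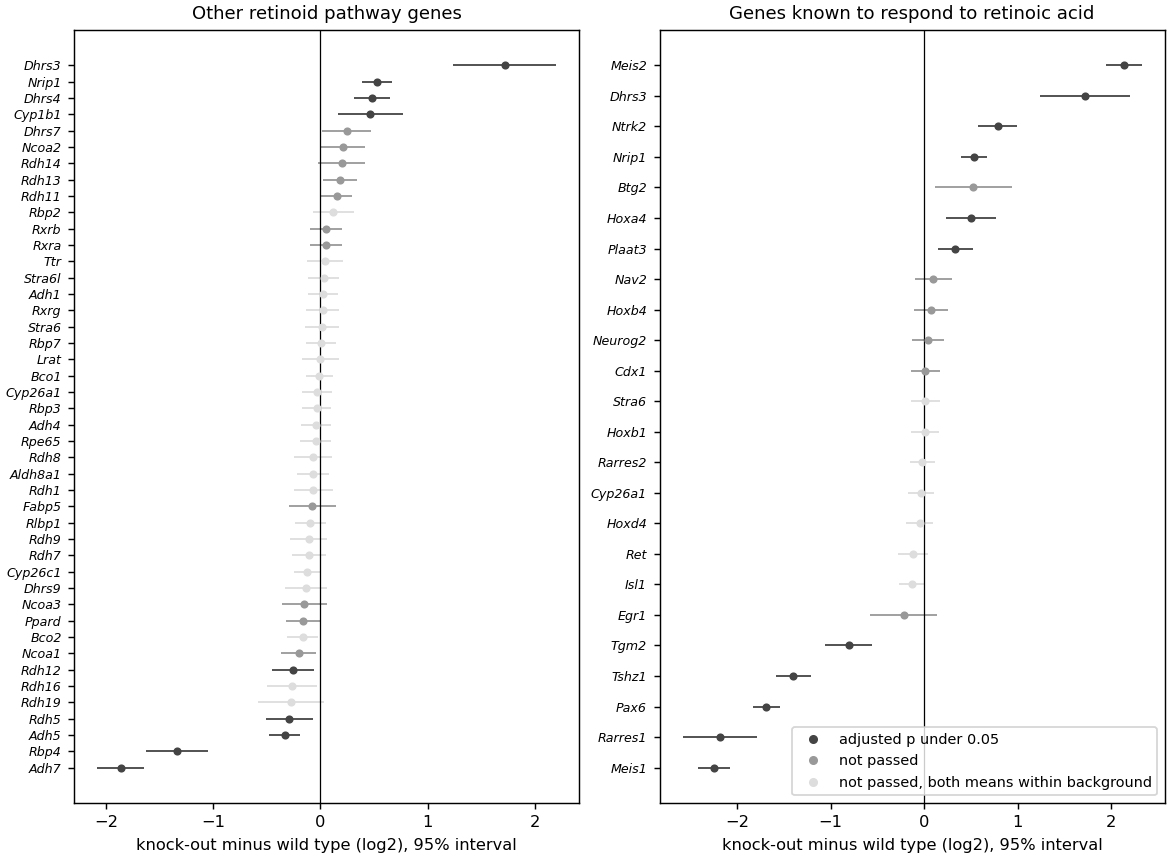
Knock-out minus wild-type difference (log2, horizontal axes) with its 95% interval for 44 other retinoid pathway genes (left) and 24 genes known to respond to retinoic acid (right), ordered by size. Dark points passed at an adjusted p under 0.05; the palest did not pass and have both means within background. Dhrs3 (+1.72) leads the left panel and Adh7 (−1.87) ends it, while Meis2 (+2.14) and Meis1 (−2.25) lie at opposite ends on the right.

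The direct repeat shown for Rarb was held by 31 genes of the promoter table, of which 11 were measured. Rarb, Blvrb (+0.64) and Ppbp (+0.29) rose and none of the 11 fell. Both genotype means of Ppbp (4.79 and 5.09) were within background, so its rise has no exact size. The share called (27.3%) was near the 31.6% of all genes. The median difference of the 11 was −0.057.

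Facts of the whole comparison stand beside these results. Array medians lay between 6.36 and 6.41. Lgi1 itself was within background on all arrays (4.61 to 4.94 in wild type, 4.53 to 4.57 in knock-out) and did not pass (log2 difference −0.22, limma adjusted p = 0.075), though with the replicate number as a block it did (0.046). Its adjusted p ranged from 0.018 (without wild-type replicate 1) to 0.23 (without wild-type replicate 3, difference −0.13) over the alternatives, so it gives no check of the labels. Xist rose from a mean of 4.64 to 12.44 and the Y-linked Eif2s3y fell from 10.19 to 4.67, so transcripts that mark the sex of the cells differed with genotype, and sex and genotype cannot be told apart. All 10 retinoic acid genes lie on autosomes, and an effect of sex on them was not tested. Lgi1 lies on chromosome 19, as do Aldh1a1 and Cyp26a1. The chromosome of most other pathway genes, Rbp4 and Cyp26c1 among them, was not looked up, so further ones may lie there. Whether differences of genes on chromosome 19 come from the deleted locus was not tested.

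Some markers of cell types also differed between the genotypes. Of 17 fibroblast and meninges markers 15 rose and none fell (88.2% called, beside 31.6% of all genes). Their median difference was +3.06, and Postn (+5.77) and Col1a2 (+5.30) led them. Their mean log2 level was 7.27 on all wild-type arrays and 9.74 to 9.78 on the knock-out arrays. Of 12 neural progenitor markers 2 rose and 5 fell (58.3% called). Ptprz1 (+6.43, from a wild-type mean of 4.92 within background) and Sox2 (−5.92) were among them. The mean level of the 12 was 8.07 to 8.16 in wild-type and 7.52 to 7.57 in knock-out cells. Sox2, a defining marker of the labelled cell type, was within background in knock-out cells (5.35, against 11.26 in wild type). In bulk RNA a change in the share of cells of a type and a change in RNA per cell cannot be told apart. The part of these shifts in the rises of Crabp1, Crabp2, Rarb and Rarg was not tested.

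Of 9 neuron markers 1 rose and 1 fell (Map2 +0.90, Syt1 −0.92), or 22.2% called beside 31.6% of all genes. Their mean levels were 5.90 to 5.94 in wild-type and 5.82 to 5.88 in knock-out cells. The knock-out mean of Syt1 (5.50) was within background, so its fall has no exact size. With the replicate block Tubb3 (limma adjusted p = 0.042) and Stmn2 (0.035) passed too, which makes 4. Of 7 endothelial markers 2 rose and 1 fell (42.9% called), with mean levels of 4.93 to 5.04 and 5.99 to 6.05. Erg (+4.60) and Tek (+3.14) rose from wild-type means within background (5.37 and 5.07), so these differences have no exact size, and Kdr fell by 0.44 within background in both genotypes. Their defining members Pecam1 and Cdh5 did not pass. Of 5 oligodendrocyte lineage markers 1 rose and 1 fell (Cspg4 +0.82, Mbp −0.87), or 40% called, with levels of 5.52 to 5.62 and 5.50 to 5.58. All 6 microglia and leukocyte markers were within background in both genotypes, with levels of 4.81 to 4.84 and 4.79 to 4.82. None of them passed in limma, and 1 (Itgam) had an unadjusted p under 0.05.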

How the data were processed

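Total RNA of 3 wild-type and 3 knock-out samples was hybridized to 1-colour Affymetrix arrays. The values the authors deposited, 1 for each probe set of an array, appear from their range to be log2. The submitters' processing notes name Partek. How background was corrected, arrays scaled and probes summarized is not stated in the labels, so the effect on low values is unknown. Values were used as deposited.

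Where a gene had several probe sets, that with the highest mean was kept, which left 19938 genes. The comparison used limma 3.58.1 (R 4.3.3; lmFit, eBayes, no block, 3 arrays each), with Benjamini-Hochberg adjustment over all genes. The code was tested on simulated data. The number of arrays limits the precision.

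Across genes, the arrays' deviations from their genotype's mean had correlations of 0.187 to 0.288 between arrays of the same replicate number (3 pairs) and −0.185 to −0.0047 between others (genes are not independent). Deviations from a genotype's mean cancel out, so positive correlations of some pairs force negative ones of others, and this contrast is not independent evidence. The numbers, taken from the titles, were treated as possible pairs, which the labels do not state. The main fit did not use the pairs, so its SEs, intervals, adjusted p and counts leave them out. The blocked value is given where it changes a call.

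The 10 genes and all lists were chosen with earlier results of these data known. Named from each list were the genes with the largest differences among those that passed (8 pathway genes, 6 responding genes, 2 per marker list), the 10 genes themselves and, chosen after their values were seen, the further genes given with values. The pathway genes were sorted by role after their values were seen. Promoters are RefSeq's (GRCm38.p6); gene bounds of the same assembly served only to place the Rarb window within its gene. The build of the array annotation is unknown here. The alternatives were the block, quantile normalization, median centring, a filter at the 25th percentile, averaged probe sets, a robust fit with intensity trend, each array left out and an adjusted p under 0.01.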

Additional observations from a re-analysis of the deposited data

How the results depend on the processing

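Crabp1, Crabp2, Rarb, Rarg and Aldh1a1 kept their direction and passed under all 13 alternatives, with log2 ranges of 1.35 to 1.48, 2.97 to 3.10, 2.94 to 3.07, 0.59 to 0.64 and −0.59 to −0.47. Rara kept its direction and lost its call under 10 of 13; the cause was not tested. Rdh10, Aldh1a3 and Cyp26b1 kept their direction and did not pass under any. Aldh1a2 turned in sign with arrays centred on their medians (−0.0020) and without knock-out replicate 3 (−0.0018, the lowest with an array left out, where the highest was 0.055); it was not among the genes above the 25th percentile, so that filter gave it no value. With the replicate number as a block, 7000 genes passed against 6296, 5 of the 10 genes against 6, 12 of the other pathway genes against 9, 12 of the responding genes against 11, and 4 neuron markers against 2, while the other marker lists kept their counts. Leaving out one array at a time gave 5485 to 5803 genes, 5 to 6 of the 10, 6 to 11 of the pathway list and 11 to 12 of the responding list. Signal over background limits Aldh1a1, Aldh1a2, Aldh1a3, Cyp26b1 and the wild-type levels of Crabp2 and Rarb.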
